A study of Mus musculus with 4 samples.

Results

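Cardiac macrophages of the Ccrl2 population were compared gene by gene with those of the CD163 population. The comparison used 2 of the study's 4 arrays, 1 per population, and all 19505 genes that had a named probe set. The members were taken by their titles, Ccrl2 Mac and CD163 Mac, and each gene's value is the Ccrl2 level minus the CD163 level on the deposited log2 scale. The cells came from the hearts of wild-type C57BL/6N mice, 15 to 16 weeks old, after transverse aortic constriction (TAC), an operation that narrows the aorta and so raises the load on the left ventricle. The study's design text calls the animals control mice with TAC. Cells of 6 hearts were mixed before sorting, so that each library is 1 pool. The labels disagree on the time since surgery, with 8 weeks in one field and 1 week in another. In the growth protocol a Lyve1 population stands in the place that the titles give to CD163. The other libraries, titled Trem2 and CD74, are given beside these where their levels help to read a gene.

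Resident macrophages of the heart live in the tissue for long periods, renew themselves with little input from blood, and carry scavenger and endocytic receptors such as LYVE1, FOLR2, CD163 and TIMD4. Macrophages that derive from blood monocytes enter the loaded heart, and many of them present antigen on class II molecules, respond to interferon and make inflammatory cytokines. CCRL2 is an atypical receptor that binds chemerin without signalling through G proteins, and it is induced in activated myeloid cells. CD163 takes up haemoglobin bound to haptoglobin.

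With 1 array per population there is no replicate error. No test, standard error or p-value could be had, and every difference below describes 2 arrays. A gene was measured when its level lay above the background ceiling of at least 1 of the 2 libraries. That ceiling was the 95th percentile of chemosensory receptor and keratin-associated protein genes on the same array, 5.67 in Ccrl2 and 6.28 in CD163. Of the 19505 genes, 7891 were measured, 4547 of them in both libraries, 2907 in Ccrl2 alone and 437 in CD163 alone. A gene was called when the brighter level exceeded the dimmer one at least 2-fold, with a dimmer level under its ceiling raised to that ceiling. A fold that rests on such a level, or on a level at the top of the scale (19.93), is a lower bound and is written "at least".

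At least 2-fold higher in Ccrl2 were 2214 genes, or 28.1% of those measured, and higher in CD163 by the same rule were 397 (5.03%). This excess went with a general shift. The median difference over the 7891 genes was 0.69, with quartiles of -0.01 and 1.41, and the CD163 array had 4984 genes over its ceiling against 7454 in Ccrl2. After quantile normalization of the 4 columns the median difference was 0.19, and 746 genes (9.45%) were higher in Ccrl2 and 1050 (13.3%) in CD163. Quantile normalization of the 2 columns alone called 10.3% and 14.1%, cyclic loess 10.5% and 11.9%, and centring the differences on their median 12.9% and 16.1%. Centring each column on its own median called 32.8% and 3.31%. Which library held more of the higher genes therefore turned with the scaling. Under 5 other scalings, 660 of the 2214 genes and 261 of the 397 kept their call in each. Calls of this kind are written below as kept under every scaling tried. A called gene measured in 1 library alone entered through the library where it was higher. Counts over measured genes therefore describe the lists and are no support for a direction.

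**Figure D1:**
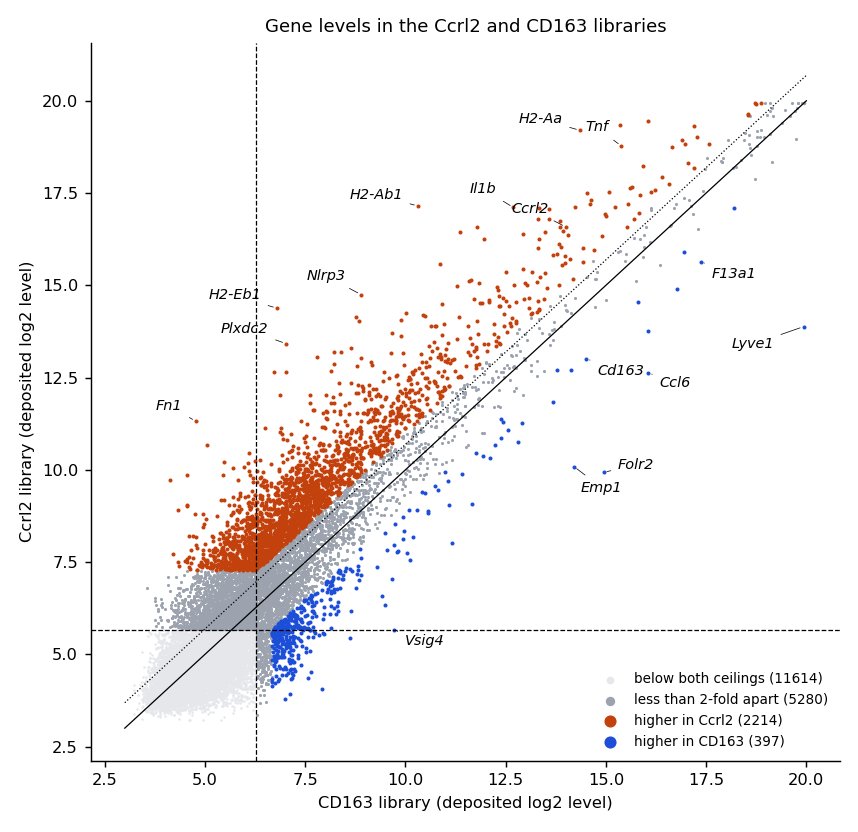
Deposited log2 level of each gene in the CD163 library (x axis) and the Ccrl2 library (y axis), with dashed lines at the background ceilings (6.28 and 5.67), a solid line at equality and a dotted line at the median difference of 0.69. The 2214 orange genes are at least 2-fold higher in Ccrl2 and the 397 blue genes at least 2-fold higher in CD163, where Lyve1 lies farthest from the line.

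**Figure D2:**
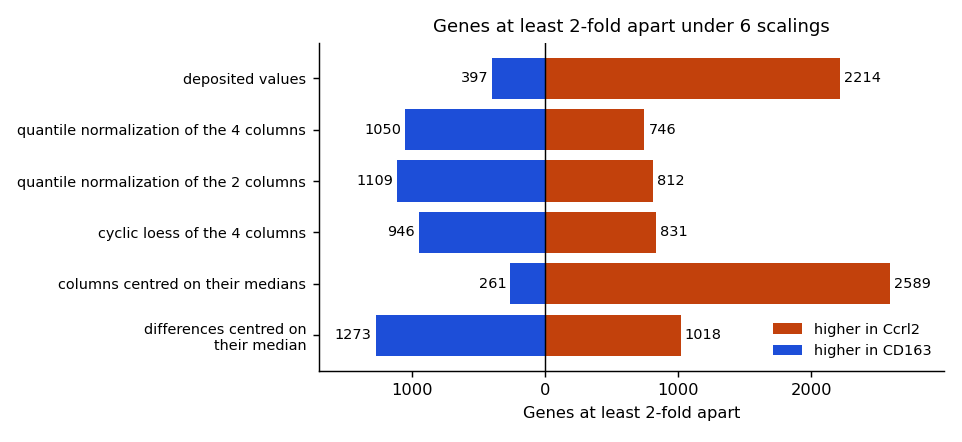
Number of genes at least 2-fold higher in Ccrl2 (orange, to the right) and in CD163 (blue, to the left) with the deposited values and with 5 other scalings of the same arrays. Deposited values give 2214 and 397 genes, and quantile normalization of the 4 columns 746 and 1050.

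The shift was not the same at every level. Among 2614 genes with a mean level between 6 and 7 the median difference was 0.35, between 8 and 10 it was 1.21 (1307 genes), and between 14 and 16 it was 1.59 (71 genes). At 16 and over it was 0.41 (109 genes), and 15 genes were at the top of the scale in both libraries. Most of the genes called higher in CD163 were dim, with 278 of 397 at a mean level under 7, against 377 of the 2214 called higher in Ccrl2. Of the 1500 background genes that set the ceilings, 125 were measured, and of these 23 (18.4%) were called higher in CD163 and 0 in Ccrl2.

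**Figure D3:**
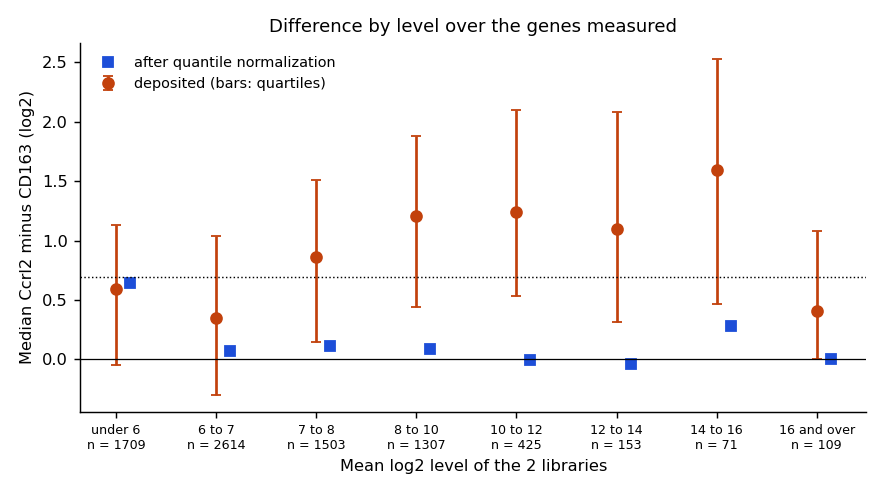
Median difference Ccrl2 minus CD163 (log2, y axis) of the measured genes, grouped by the mean of their 2 levels (x axis, with the number of genes), as deposited (circles, bars from the lower to the upper quartile) and after quantile normalization (squares). The deposited medians lie above 0 in each of the 8 level groups and reach 1.59 at levels from 14 to 16, and after quantile normalization the medians at 10 to 14 lie at or below 0.

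The markers proposed for the comparison were Fn1 and Plxdc2 on the Ccrl2 side and Lyve1 and Folr2 on the CD163 side. They were chosen with earlier results of these arrays known, so their values are a description. Fn1, which encodes the matrix protein fibronectin, had 11.32 in Ccrl2 and 4.77, below the ceiling, in CD163, with 8.19 in Trem2 and 7.08 in CD74. Plxdc2, which encodes a membrane protein with a plexin domain, had 13.42 against 7.02, with 11.66 in Trem2 and a background level of 5.65 in CD74. Both had their highest level in Ccrl2 of the 4 libraries. Lyve1, the hyaluronan receptor of resident macrophages and lymphatic vessels, had 13.88 in Ccrl2 and the top value of 19.93 in CD163. Folr2, a folate receptor, had 9.93 against 14.94, a 32.2-fold difference, with 10.43 in Trem2 and a background level of 6.49 in CD74. Lyve1 and Folr2 were well above the ceiling in Ccrl2 too, with Lyve1 at least 66.3-fold apart.

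Between these 2 libraries the sort markers followed the titles. The Ccrl2 transcript was 5.98-fold higher in its own library, at 16.58 against 14 in CD163, and it had 16.59 in Trem2, no lower than in Ccrl2. Cd163 had 13.01 in Ccrl2 and 14.51 in CD163, 2.83-fold apart. Both calls were kept under every scaling tried, and both transcripts were far above the ceiling in both libraries. Trem2, a lipid-sensing receptor, had 7.17 and 6.71, and Cd9, a tetraspanin, had 10.79 and 9.35. The call of Cd9, 2.71-fold higher in Ccrl2, was lost once the general shift was taken off (0.75).

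Macrophage identity genes were present in both libraries. All 18 such genes with a probe set lay above the ceiling in Ccrl2 and 17 in CD163, the exception being Irf8 (6.66 and 4.87). Csf1r, which receives the survival signal CSF1, had 19.59 and 18.60, and Adgre1, which encodes F4/80, had 14.45 and 13.60. Spi1, the transcription factor PU.1, had 19.72 in both, close to the top of the scale, and Lyz2, lysozyme, was at the top in both. A difference may not be resolved for either. Of the 18 genes, 7 were at least 2-fold higher in Ccrl2 and 0 in CD163, beside 28.1% and 5.03% of all measured genes. The median difference was 0.92 beside 0.69, and 0.11 after quantile normalization. Ptprc, the leukocyte surface protein CD45, had 17.09 against 13.32, a 13.6-fold difference. Aif1, which encodes the actin-binding protein IBA1, was 10.5-fold higher, and Cd14, the lipopolysaccharide co-receptor, 7.31-fold. The call was kept under every scaling for these 3 genes and for Fcgr1 and Cx3cr1.

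Resident macrophage genes formed the clearest group on the CD163 side. Of 32 genes listed, 31 had a probe set and 26 were measured. At least 2-fold higher in CD163 were 12 of these 26, beside 5.03% of all measured genes, and 1 was higher in Ccrl2. The median difference was -1.05, beside 0.69 over all measured genes. After quantile normalization 20 were higher in CD163 and 0 in Ccrl2, beside 13.3% and 9.45% of all measured genes, and the median was -1.85. Of the 12 calls, 11 were kept under every scaling tried. The list was written with earlier results of these arrays known, so its direction is not independent evidence.

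Vsig4, a complement receptor of tissue macrophages, had 9.71 in CD163 and 5.65 in Ccrl2, just under its ceiling, at least 16.4-fold apart. Vsig4 had 6.57 in Trem2 and a background level of 4.51 in CD74. Ednrb, an endothelin receptor, had 11.17 against 8.02, with 7.79 in Trem2 and 6.92 in CD74. Both stood highest in CD163 of the 4 libraries. Cfp encodes properdin, which stabilises the enzyme that activates complement C3, and it had 11.65 against 9.07. Gas6, a bridging ligand between dying cells and the receptors AXL and MERTK, had 12.81 against 10.75. Timd4, a receptor for phosphatidylserine that marks long-lived resident macrophages, had 9.54 against 7.82, with 6.42 in Trem2 and a background level of 6.02 in CD74. F13a1, a chain of coagulation factor XIII, had 17.36 against 15.64, as far apart as Timd4 (3.29-fold) but at a far higher signal.

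As deposited, several resident genes were not called, or leaned the other way. Mrc1, the mannose receptor CD206, and Selenop, a selenium carrier, were at 19.93 in both libraries, so no difference could be read for either. Cbr2, a carbonyl reductase, had 12.95 in Ccrl2 and 13.29 in CD163, and Maf, a transcription factor of mature macrophages, had 10.61 and 11.51. Pf4, a platelet-type chemokine that resident macrophages also make, had 9.86 and 10.36. These 3 were under 2-fold apart as deposited. After quantile normalization of the 4 columns they were over 2-fold higher in CD163 (-1.38 for Cbr2, -2.08 for Maf and -1.675 for Pf4). Igf1, insulin-like growth factor 1, had 13.82 in Ccrl2 and 12.84 in CD163, and a difference of -0.29 after that normalization. Stab1, a scavenger receptor, was 2.27-fold higher in Ccrl2 (9.74 against 8.56), and that call was not kept under every scaling. The lectin genes Cd209d, Cd209f and Cd209g lay below the ceiling in both libraries.

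**Figure D4:**
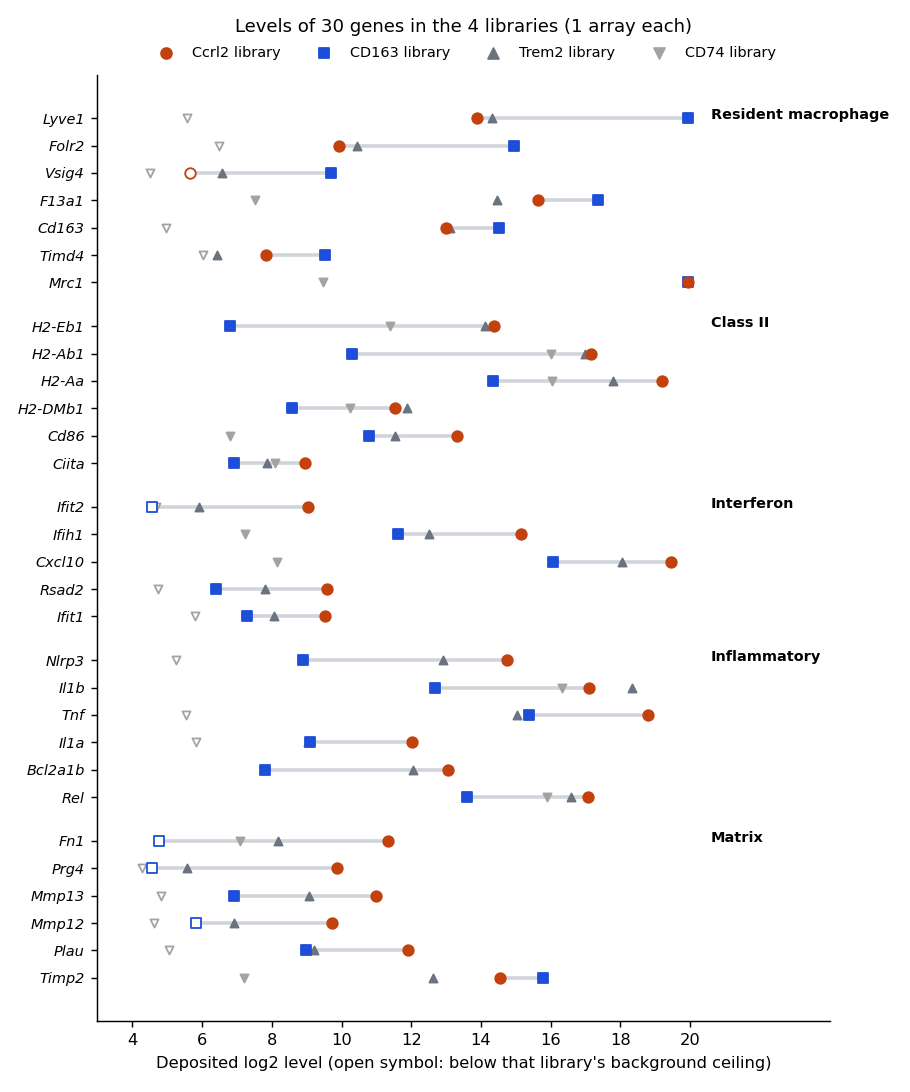
Deposited log2 level (x axis) of 30 genes, grouped by role, in the Ccrl2, CD163, Trem2 and CD74 libraries, 1 array each, with an open symbol where a level lies below that library's background ceiling. A grey line joins Ccrl2 and CD163, which are farthest apart for H2-Eb1 (14.38 and 6.79).

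The alternative activation list held 12 measured genes of 19 listed. Higher in CD163 were 3 of these, beside 5.03% of all measured genes, and 1 was higher in Ccrl2, beside 28.1%. Emp1, an epithelial membrane protein, had 14.20 in CD163 and 10.09 in Ccrl2, a 17.3-fold difference, with 8.93 in Trem2 and a background level of 6.08 in CD74. Retnla, a secreted protein induced by interleukin 4, had 9.30 against 7.36. The 3 higher genes were Emp1, Retnla and Ednrb, which is also in the resident list, all kept under every scaling. Classical genes of the list did not follow them, with Arg1, Chil3 and Chil4 below the ceiling in both libraries and Il4ra at 10.29 and 10.37. The list median of 0.12 turned negative under 4 of the 5 scalings (-0.70 after quantile normalization).

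Class II antigen presentation genes included the largest deposited differences among the genes named here, H2-Eb1 (7.59) and H2-Ab1 (6.84). After quantile normalization of the 4 columns, Lyve1 (-6.96, toward CD163) lay farther apart than H2-Eb1 (6.41). Of 16 listed genes, all with a probe set, 14 were measured. At least 2-fold higher in Ccrl2 were 10, beside 28.1% of all measured genes, and 0 were higher in CD163, with a median of 2.28 beside 0.69. After quantile normalization 8 were higher in Ccrl2 and 0 in CD163, beside 9.45% and 13.3%. The calls of 8 genes were kept under every scaling.

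The class II chains led the group. H2-Eb1, the beta chain of I-E, had 14.38 in Ccrl2 and 6.79 in CD163, 193-fold apart, with 14.12 in Trem2 and 11.38 in CD74. H2-Ab1, the beta chain of I-A, had 17.15 against 10.31, a 115-fold difference, with 16.97 in Trem2 and 16.01 in CD74. H2-Aa, its alpha partner, had 19.20 against 14.35, with 17.78 and 16.03. For each of these 3 chains the CD163 library was the lowest of the 4. The peptide-loading chains H2-DMb1 (11.52 and 8.59) and H2-DMb2 (10.05 and 5.69, the latter below the ceiling) followed the same order. Ciita, the coactivator that drives class II transcription, had 8.96 against 6.92, a 4.11-fold difference.

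Costimulatory genes of the list stood with the chains. Cd86, a ligand of CD28, had 13.30 in Ccrl2 and 10.78 in CD163, and Cd83, an activation marker that keeps class II on the surface, had 19.35 and 15.36. Cd80, the other CD28 ligand, was 4.03-fold higher in Ccrl2 (9.65 and 7.64), but its call was lost under at least 1 scaling. Cd40 (6.92 and 6.19) was not called. Enzymes that prepare antigen differed less, with 17.03 and 16.12 for the protease gene Ctss and 12.25 and 11.67 for the thiol reductase gene Ifi30. Class I genes stood apart less than class II genes. Of 13 measured class I genes 7 were called higher in Ccrl2, beside 28.1% of all measured genes, and 0 in CD163, but 0 of the 7 calls were kept under every scaling. H2-K1, a class I heavy chain, had 17.59 and 16.23. The difference between the class I and class II lists was not tested.

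Promoter sequences are shown for genes of the groups that stood far apart, to let the 2 directions be compared at the level of sequence. They are the 250 bases before the transcription start in RefSeq on GRCm38.p6, written 5′ to 3′ on the gene's strand. Capitals mark matches, on either strand, to 4 motifs: the class II Y box CTGATTGG, an interferon-response (ISRE-like) motif of GAAA, any 2 bases and GAAA, the MAF core TGCTGAC and the NF-kB site by name. Overlapping NF-kB matches are run together. H2-Aa (chr17:34287824-34288073 (minus strand)) and H2-Eb1 (chr17:34305617-34305866 (plus strand)) each hold the Y box, ending 44 and 55 bases before the start, and H2-Aa also holds overlapping NF-kB matches. Ifit3 (chr19:34583279-34583528 (plus strand)) holds the ISRE-like motif at 2 places and Rsad2 (chr12:26456453-26456702 (minus strand)) at 1. Cxcl10 (chr5:92348890-92349139 (minus strand)) holds the ISRE-like motif, NF-kB matches and the Y box letters on the opposite strand, and Rel (chr11:23770970-23771219 (minus strand)) overlapping NF-kB matches. Vsig4 (chrX:96293439-96293688 (minus strand)) and Cd163 (chr6:124304401-124304650 (plus strand)), from the CD163 side, hold none of the 4 in this window.
H2-Aa: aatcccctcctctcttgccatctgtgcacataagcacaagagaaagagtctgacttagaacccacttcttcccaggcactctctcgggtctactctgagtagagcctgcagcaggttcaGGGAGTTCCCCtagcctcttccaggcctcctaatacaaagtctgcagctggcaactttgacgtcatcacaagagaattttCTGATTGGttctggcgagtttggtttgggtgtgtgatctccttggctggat
H2-Eb1: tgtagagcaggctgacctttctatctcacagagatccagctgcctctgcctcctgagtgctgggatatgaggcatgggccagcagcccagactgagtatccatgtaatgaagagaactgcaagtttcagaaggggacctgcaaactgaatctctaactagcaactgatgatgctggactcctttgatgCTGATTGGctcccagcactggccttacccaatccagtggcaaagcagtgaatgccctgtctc
Ifit3: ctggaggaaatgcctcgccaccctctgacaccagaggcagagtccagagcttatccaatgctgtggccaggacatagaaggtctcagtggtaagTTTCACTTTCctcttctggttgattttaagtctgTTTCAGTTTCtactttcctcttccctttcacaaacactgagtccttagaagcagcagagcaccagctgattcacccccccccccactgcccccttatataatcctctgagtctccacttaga
Rsad2: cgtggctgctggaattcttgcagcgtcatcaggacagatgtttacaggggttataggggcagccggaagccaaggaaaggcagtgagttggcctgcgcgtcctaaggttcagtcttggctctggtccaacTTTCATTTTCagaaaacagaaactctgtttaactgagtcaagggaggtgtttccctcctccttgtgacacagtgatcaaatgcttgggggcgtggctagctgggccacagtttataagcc
Cxcl10: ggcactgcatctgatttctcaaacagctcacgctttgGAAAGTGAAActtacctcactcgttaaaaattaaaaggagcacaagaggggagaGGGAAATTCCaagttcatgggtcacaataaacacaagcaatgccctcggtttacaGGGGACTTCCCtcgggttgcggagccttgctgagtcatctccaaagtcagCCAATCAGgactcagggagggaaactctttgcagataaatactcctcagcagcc
Rel: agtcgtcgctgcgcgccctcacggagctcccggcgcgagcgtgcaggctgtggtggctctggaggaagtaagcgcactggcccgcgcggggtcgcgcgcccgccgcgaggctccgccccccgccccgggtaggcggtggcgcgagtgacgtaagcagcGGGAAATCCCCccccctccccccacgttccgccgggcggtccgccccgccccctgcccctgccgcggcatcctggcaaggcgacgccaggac
Vsig4: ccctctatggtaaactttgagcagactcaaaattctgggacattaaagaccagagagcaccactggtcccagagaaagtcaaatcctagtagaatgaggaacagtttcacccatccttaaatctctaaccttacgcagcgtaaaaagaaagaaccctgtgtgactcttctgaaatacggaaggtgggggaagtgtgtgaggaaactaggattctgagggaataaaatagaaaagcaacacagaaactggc
Cd163: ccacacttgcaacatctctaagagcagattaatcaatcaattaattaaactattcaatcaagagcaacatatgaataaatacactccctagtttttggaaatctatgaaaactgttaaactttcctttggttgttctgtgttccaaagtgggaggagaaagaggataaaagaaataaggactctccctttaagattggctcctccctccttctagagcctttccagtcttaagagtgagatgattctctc

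Motif shares over whole groups are a description of letters, and a match is not a bound site. The ISRE-like motif stood in 10 of 25 promoters (40.0%) of all measured interferon response genes and in 8 of 17 (47.1%) of those called higher in Ccrl2. It stood in 2.98% of all 32851 promoters in the table and 2.99% of the promoters of measured genes. An NF-kB match stood in 16 of 28 promoters (57.1%) of all measured NF-kB subunit and feedback genes and in 8 of 18 (44.4%) of the called ones, beside 7.25% of all promoters and 9.0% of those of measured genes. Both motifs thus went with the lists, and nothing about the direction of a call is read from them. The Y box stood in 2 of 10 promoters of all measured class II genes, both among the 7 promoters of called genes, beside 3.83% of all and 5.1% of those of measured genes. Over all genes called higher in Ccrl2 the shares were 3.06% for the ISRE-like motif, 9.56% for NF-kB and 4.45% for the Y box. Over all genes called higher in CD163 they were 3.36%, 6.46% and 4.91%. The MAF core stood in 1 of 11 promoters (9.09%) of the resident macrophage genes called higher in CD163. In all measured resident genes it stood in 2 of 22 (9.09%), beside 3.81% of all promoters and 2.95% of those of measured genes. Its shares over all genes called higher in Ccrl2 and in CD163 were 2.82% and 3.62%.

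Interferon response genes leaned to Ccrl2, led by antiviral effectors and the sensor gene Ifih1. Of 36 listed genes, 31 had a probe set and 29 were measured, 13 of them below the ceiling in CD163. At least 2-fold higher in Ccrl2 were 15 and in CD163 0, beside 28.1% and 5.03% of all measured genes, with a median difference of 1.79 beside 0.69. After quantile normalization the counts were 10 and 2, beside 9.45% and 13.3% of all measured genes. The calls of 8 genes were kept under every scaling, and all 8 had their highest level of the 4 libraries in Ccrl2.

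Among the sensors, Ifih1, which encodes the double-stranded RNA sensor MDA5, had 15.15 in Ccrl2 and 11.63 in CD163, with 12.52 in Trem2 and 7.24 in CD74. Ddx58, the related sensor RIG-I, had 6.84 and 7.07 and was not called. Among effectors, Ifit2, an antiviral RNA-binding protein, had 9.03 against 4.56, below the ceiling, at least 6.73-fold apart. Its relatives Ifit3 (10.73 and 7.87) and Ifit1 (9.54 and 7.29) stood in the same order. Rsad2, the antiviral enzyme viperin, had 9.59 against 6.39, and Mx2, a dynamin-like GTPase, 9.46 against 6.54. Cxcl10, a chemokine for T cells, had 19.46 against 16.06. Among regulators, Irf9 was 2.50-fold higher in Ccrl2 (7.67 and 6.35), a call that was not kept. Irf1 (12.65 and 12.44), Irf7 (6.58 and 6.10, the latter below the ceiling) and Stat2 (8.25 and 7.54) were not called. Ifi204 (14.24 and 14.13) and Oas2 (8.58 and 8.65) were under 2-fold apart too, as deposited. After quantile normalization of the 4 columns both were over 2-fold higher in CD163 (-1.18 and -1.13). The response thus differed gene by gene, with 14 of the 29 not called.

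Inflammatory cytokine and inflammasome genes were higher in Ccrl2 in 13 of 21 measured cases, beside 28.1% of all measured genes, and in CD163 in 0, of 25 listed. Their median was 1.82, beside 0.69. After quantile normalization 10 were higher in Ccrl2 and 0 in CD163, beside 9.45% and 13.3% of all measured genes. Nlrp3, the sensor of the inflammasome that activates interleukin 1, had 14.75 in Ccrl2 and 8.89 in CD163, 58.1-fold apart, with 12.91 in Trem2 and a background level of 5.26 in CD74. Il1b, the cytokine it releases, had 17.11 against 12.69, with 18.34 in Trem2 and 16.33 in CD74, so that CD163 was the lowest of the 4. The other parts of the inflammasome differed less. Casp1, the protease that cuts the cytokine, had 8.49 and 8.11, and Casp4, its lipopolysaccharide-sensing relative, had 11.02 and 9.21.

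Several other cytokines lay lower in CD163 than in Ccrl2, with Tnf at high signal in both libraries. Tnf had 18.78 in Ccrl2 and 15.38 in CD163, and Il6 had 11.18 and 9.36. The Tnf call was kept under every scaling and the Il6 call was not. Il1a (7.67-fold), Osm, oncostatin M (6.92-fold), and Il1rn, the receptor antagonist (5.43-fold), were higher in Ccrl2 and kept. Acod1, which makes the anti-inflammatory metabolite itaconate, had 8.92 against 4.32, below the ceiling, with 13.77 in Trem2. Ptgs2, the inducible cyclo-oxygenase, had 10.12 against 8.26, and Il10 8.07 against 6.39. Nos2 lay below the ceiling in both libraries.

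NF-kB subunit and feedback genes were higher in Ccrl2 in 14 of 21 measured cases and in CD163 in 0, beside 28.1% and 5.03% of all measured genes. Their median was 1.88, beside 0.69, and 10 calls were kept under every scaling. The survival genes of the Bcl2a1 family had the largest differences, Bcl2a1a with 12.65 against 6.73, Bcl2a1b with 13.06 against 7.80 and Bcl2a1d with 12.02 against 6.86. These 3 genes are close copies, so their probe sets may not tell them apart, and they are better read as 1 observation. Rel, the subunit c-REL, had 17.08 against 13.59, while Rela, the subunit p65, had 14.30 against 14.04. The inhibitors also split. Nfkbiz, which modifies NF-kB at its targets, was 6.45-fold and Nfkbid 5.31-fold higher in Ccrl2, but Nfkbia, the main cytosolic inhibitor, had 18.45 and 17.91. Tnfaip3, the ubiquitin-editing enzyme A20, had 19.93 and 19.78, too close to the top to be resolved.

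Chemokine ligands went in both directions. Of 17 measured genes 6 were at least 2-fold higher in Ccrl2 and 2 in CD163, beside 28.1% and 5.03% of all measured genes. The median was 0.95, and 3 and 2 calls were kept. Cxcl16, a membrane-bound chemokine and scavenger receptor, had 16.57 in Ccrl2 and 11.78 in CD163, 27.7-fold apart. Ccl5, a chemokine for T cells and monocytes, had 11.02 against 6.86, with 9.13 in Trem2 and 10.93 in CD74. Ccl7, a monocyte attractant, was 4.89-fold higher in Ccrl2. On the other side, Ccl6, a chemokine of the myeloid lineage, had 16.06 in CD163 and 12.63 in Ccrl2, with 13.82 in Trem2 and 8.75 in CD74. Cxcl13, the B cell attractant, had 8.82 against 7.39. The inflammatory pair Ccl3 and Ccl4 had 19.93 and 18.98, and 18.46 and 17.51, and Cxcl2 was at 19.93 in both libraries.

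Chemokine receptors were measured in 7 of 16 listed genes. All 7, with the sort marker Ccrl2 among them, were at least 2-fold higher in Ccrl2, beside 28.1% of all measured genes. After quantile normalization 2 were higher in Ccrl2, beside 9.45% of all measured genes, and the median of 2.08 was 0.80. Only Ccrl2 itself and Cx3cr1, the fractalkine receptor (9.39 against 7.06), kept their calls under every scaling. Ccr2, the receptor that brings monocytes out of the bone marrow, had 7.49 in Ccrl2 and 4.32, below the ceiling, in CD163, with 7.76 in Trem2 and 8.60 in CD74. That is a difference of at least 2.31-fold, and it was not kept under every scaling. Cmklr1, the signalling receptor for chemerin, had 11.59 against 9.82.

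Monocyte genes were only partly present in Ccrl2. Of 24 listed genes, 13 were measured, all 13 above the ceiling in Ccrl2 and 5 in CD163. Members below the ceiling in CD163 entered through Ccrl2 alone. At least 2-fold higher in Ccrl2 were 8, beside 28.1% of all measured genes, and in CD163 0. The median was 1.70 beside 0.69, and 1.12 without members shared with another list. Kept were 4 calls (Fn1, Plxdc2, Nr4a1 and Thbs1). Fn1 and Plxdc2 are markers proposed for this comparison with these arrays known, so their calls are no support. Ly6c2, the surface marker of classical monocytes, had 6.90 against 5.99, with 10.98 in Trem2 and 12.55 in CD74. Plac8, another classical monocyte gene, had 8.22 against 6.30, with 12.52 in Trem2. Itgal, Spn, Chil3 and Vcan lay below the ceiling in both libraries. Before dim levels are raised, the largest differences of the list were those of the 4 kept genes. The monocyte receptor gene Ccr2 came next (3.17), below the ceiling in CD163 and with a call that was not kept. Ly6c2 was not called.

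Matrix and proteolysis genes were mostly higher in Ccrl2. Of 31 listed genes, 28 had a probe set and 17 were measured, 10 of them below the ceiling in CD163. At least 2-fold higher in Ccrl2 were 14 and in CD163 1, beside 28.1% and 5.03% of all measured genes. The median was 2.91, beside 0.69, and it was 1.72 after quantile normalization and 2.12 over the members above the ceiling in both libraries. The calls of 10 and 1 genes were kept under every scaling.

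Besides fibronectin, the matrix components higher in Ccrl2 were Prg4, which encodes the lubricant lubricin, and Thbs1, thrombospondin 1. Prg4 had 9.86 against 4.56, below the ceiling, with 5.58 in Trem2. Among enzymes, the collagenase gene Mmp13 had 10.98 against 6.93 and the elastase gene Mmp12 had 9.73 against 5.83, below the ceiling. Plasminogen activation had members on each step. Plau, the urokinase activator, had 11.90 against 8.99, Plaur, its receptor, 9.02 against 5.84, and Serpinb2, its inhibitor, 9.06 against 4.54, the last 2 below the ceiling in CD163. The inhibitors of metalloproteinases did not follow. Timp2 had 15.79 in CD163 and 14.54 in Ccrl2, a 2.38-fold difference in favour of CD163 that was kept under every scaling, with 12.61 in Trem2. Tgfbi, a matrix protein induced by TGF-beta, had 16.16 and 16.10. Timp1, Mmp14 and Tnc lay below the ceiling in both.

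As deposited, growth factors differed little. Of 11 measured genes 1 was at least 2-fold higher in Ccrl2 (Csf1, 8.89 against 7.46, not kept under every scaling) and 1 in CD163. Over all measured genes the shares were 28.1% and 5.03%. Higher in CD163 was Tgfb1, transforming growth factor beta 1, with 12.39 in CD163 and 10.86 in Ccrl2, kept under every scaling, and 12.20 in Trem2. Grn, progranulin, had 16.52 in Ccrl2 and 17.29 in CD163, and a difference of -1.71 after quantile normalization of the 4 columns. Pdgfc had 7.49 and 7.27. The list median of 0.47 was -0.06 after quantile normalization. By that scaling 0 genes were higher in Ccrl2 and 2 in CD163, beside 9.45% and 13.3% of all measured genes.

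Receptors for uptake were called in both directions. Of 21 measured scavenger and efferocytosis genes, 7 were at least 2-fold higher in Ccrl2 and 5 in CD163. Over all measured genes the shares were 28.1% and 5.03%, so the Ccrl2 count lay near its share. The list median of 0.40 was -0.24 after quantile normalization. Axl, a receptor for dying cells, had 13.29 in Ccrl2 and 8.63 in CD163, 25.3-fold apart, with 11.33 in Trem2 and a background level of 5.62 in CD74. Its ligand Gas6 stood in the opposite order, and so did the phosphatidylserine receptor Timd4. Mertk, the related receptor, had 9.45 against 8.08, a call that was not kept. Colec12, a scavenger collectin, had 8.50 in CD163 and 7.25 in Ccrl2. The Fc receptors Fcgr2b (18.21 and 18.24) and Fcgr3 (19.01 and 18.95) were level, whereas Fcgr1, the high-affinity receptor, was 5.17-fold higher in Ccrl2.

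Complement genes were mostly level. Of 11 measured genes 2 were at least 2-fold higher in each library, beside 28.1% (Ccrl2) and 5.03% (CD163) of all measured genes. The C1q chains had 17.15 and 17.13 for C1qa, 17.37 and 16.94 for C1qb and 15.85 and 15.51 for C1qc. Vsig4 and Cfp were the 2 higher in CD163, and Cd55, which protects cells from complement, had 8.65 against 5.79, below the ceiling, in Ccrl2. Their median of 0.43 was -0.69 after quantile normalization.

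Iron and lipid genes showed few differences. Hmox1, the haem-degrading enzyme, had 19.58 in both libraries, close to the top of the scale (19.93), where a difference may not be resolved. The haemoglobin receptor Cd163 was higher in the CD163 library. Spic, a transcription factor of iron-recycling macrophages, had 9.86 in Ccrl2 and 6.13, below the ceiling, in CD163. Txnrd1, thioredoxin reductase, was 5.90-fold higher in Ccrl2, and both calls were kept. Of 17 measured lipid genes 5 were higher in Ccrl2, near the 28.1% of all measured genes, and 0 in CD163. Among them only Fabp4, a fatty acid binding protein, kept its call (14.88 against 12.32). Apoe was at 19.93 in both libraries, and Abca1, a cholesterol exporter, had 12.98 and 12.99. Of 16 measured lysosomal genes 8 were higher in Ccrl2 and 0 in CD163, beside 28.1% and 5.03% of all measured genes. Their median was 0.16 after quantile normalization. Atp6v1a, a subunit of the proton pump (6.11-fold), and Ctsh, cathepsin H (5.39-fold), kept their calls.

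**Figure D5:**
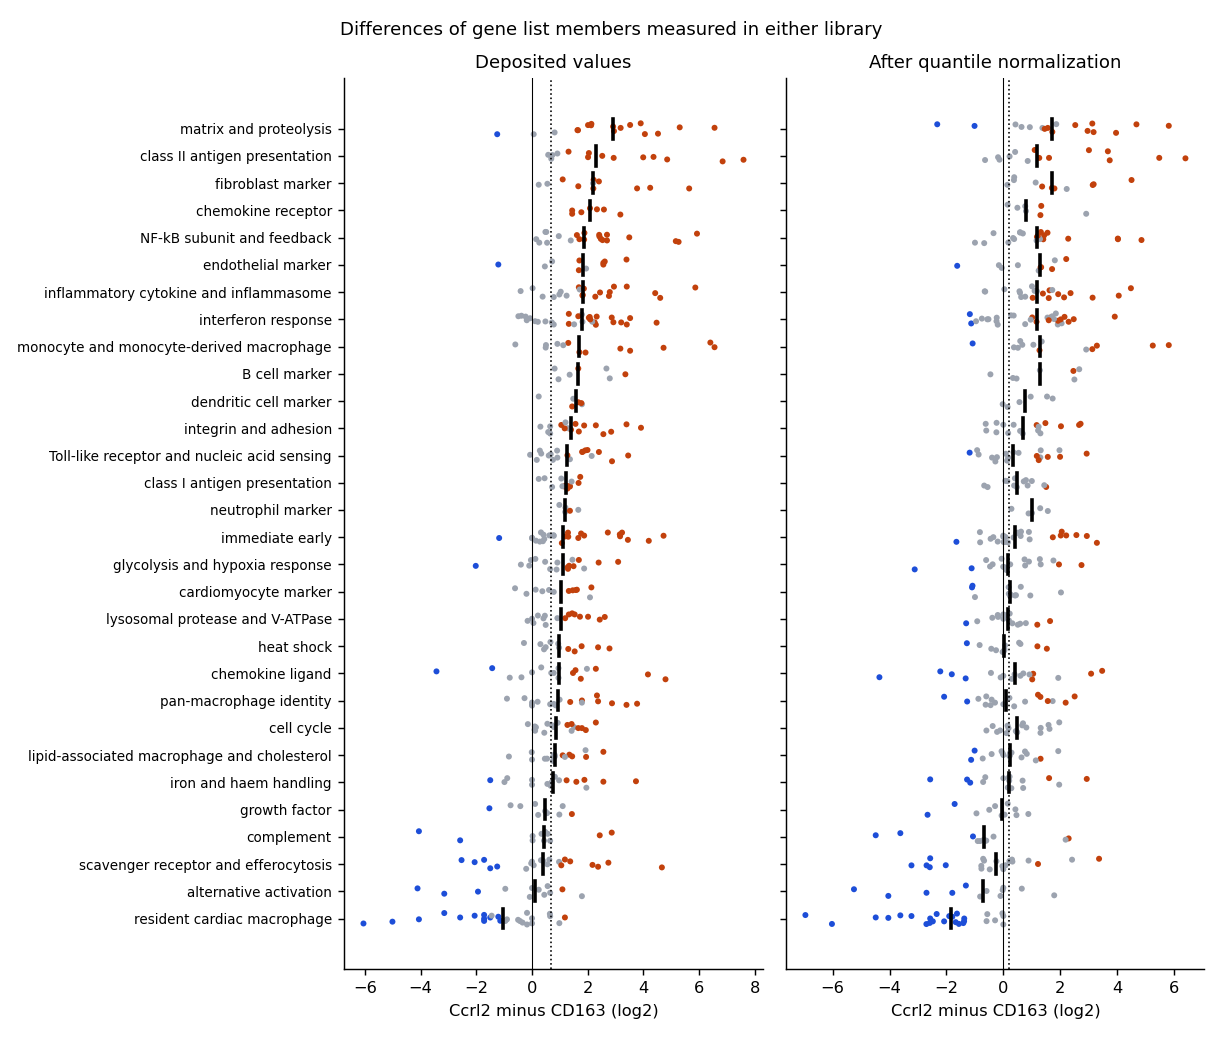
Difference Ccrl2 minus CD163 (log2, x axis) of the measured members of 30 gene lists, as deposited (left) and after quantile normalization (right), with orange for at least 2-fold higher in Ccrl2 once a dim level is raised to its ceiling, blue for CD163, grey for neither, a black bar at each list median and a dotted line at the median of all measured genes (0.69 and 0.19). The deposited median is 2.28 for class II genes and -1.05 for resident macrophage genes, and the 2.91 of matrix genes is 2.12 over members above the ceiling in both libraries. The medians of growth factor, complement, scavenger and alternative activation genes lie above 0 as deposited and below 0 after quantile normalization.

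Adhesion genes leaned to Ccrl2, and sensing genes less so. Of 17 measured integrin and adhesion genes, 11 were at least 2-fold higher in Ccrl2 and 0 in CD163, beside 28.1% and 5.03% of all measured genes, with a median of 1.40 (0.69 after quantile normalization) and 5 calls kept. Vcam1, a ligand for integrins on leukocytes, had 11.61 against 7.70, and Itgav, the alpha V chain that binds fibronectin, had 9.12 against 6.28, at the ceiling. Of 19 measured Toll-like receptor and sensing genes 8 were higher in Ccrl2 and 0 in CD163, with 4 calls kept, and their median of 1.27 was 0.36 after quantile normalization. Tlr13, a sensor of bacterial RNA, had 8.76 against 5.31, below the ceiling, and Myd88, the shared adaptor, 8.24 against 6.33. Tlr4 (9.88 and 9.60) and Tlr7 (18.15 and 17.48) were under 2-fold apart.

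Immediate early genes, which cells induce quickly on activation and also during dissociation, stood on the same side as the inflammatory group. All 26 listed were measured, with 14 at least 2-fold higher in Ccrl2, 1 in CD163 (Fosl1, 6.26 against 7.44), beside 28.1% and 5.03% of all measured genes. The median of 1.13 was 0.40 after quantile normalization. Nr4a1, an orphan nuclear receptor, had 15.57 in Ccrl2 and 10.85 in CD163, Nr4a3 11.80 and 7.61, and Junb, an AP-1 subunit, 16.38 and 12.94. These calls were among 7 kept under every scaling. Others could not be resolved, with Dusp1 and Zfp36 at 19.93 in both libraries and Egr1 at 19.93 and 19.79. Of 12 heat shock genes 5 were higher in Ccrl2 and 0 in CD163, and their median of 0.95 was 0.03 after quantile normalization. The calls of 2 were kept, Dnajb1 (12.57 against 9.79) and Hsph1 (14.70 against 12.33). The part of handling stress in the inflammatory differences was not tested.

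Among markers of other heart cells, those of fibroblasts were mostly called higher in Ccrl2. In a bulk library, more cells of a type and more RNA per cell cannot be told apart. Of 14 fibroblast genes with a probe set, 11 lay above the ceiling in Ccrl2 and 4 in CD163. Called higher in Ccrl2 were 8 and in CD163 0, beside 28.1% and 5.03% of all measured genes, with 6 calls kept. Dcn, which encodes decorin, had 12.65 against 7.01, with 12.67 in Trem2 and a background level of 4.71 in CD74. Gsn, gelsolin, had 11.13 against 6.89, and Lum, lumican, 9.18 against 5.41. The defining fibroblast gene Tcf21 lay below the ceiling in both libraries (4.49 and 4.44), and Col1a1, a collagen chain, had 7.92 and 6.82. Summed on the linear scale, the 14 fibroblast genes gave 11117 in Ccrl2 and 921 in CD163, and 4690 and 792 without Dcn. Sparc, a matrix protein that fibroblasts secrete, had 14.13 in Ccrl2 and 8.77 in CD163. Their part in the matrix differences above was not tested.

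Endothelial and muscle markers were present in both libraries. Of 10 measured endothelial genes 6 were higher in Ccrl2 and 1 in CD163, beside 28.1% and 5.03% of all measured genes. Cdh5, the junction protein VE-cadherin, had 10.86 against 7.47, and Esam had 6.06 against 7.27. Cldn5, Tek and Vwf lay below the ceiling in both. The 14 endothelial genes with a probe set summed to 35980 in Ccrl2 and 6623 in CD163. Most of both sums came from Fabp4, which is also in the lipid list, and the other 13 genes summed to 5827 and 1510. Of 12 measured cardiomyocyte genes 5 were called higher in Ccrl2, beside 28.1% of all measured genes, and none of these calls was kept under every scaling. The list median was 0.245 after quantile normalization, beside 0.19 over all measured genes. Myl2, the ventricular myosin light chain, had 12.50 and 11.04. The 14 cardiomyocyte genes summed to 13998 and 6008, and to 8206 and 3902 without Myl2. Mural cell markers were measured in 3 of 11 cases and 0 were called.

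B cell markers were present in both libraries, with 7 of 11 above the ceiling in Ccrl2 and 4 in CD163. Higher in Ccrl2 were 2 of the 7 measured genes, beside 28.1% of all measured genes, with a median of 1.66 beside 0.69. The 11 genes summed to 4563 in Ccrl2 and 1853 in CD163. Bank1, a B cell adaptor, had 11.00 and 10.19, and Ebf1, a transcription factor of B cells that other cells also express, had 9.95 and 8.29. Cd79a, a chain of the B cell receptor complex, had 9.66 in Ccrl2 and 6.31 in CD163, with 11.80 in Trem2 and 10.70 in CD74, and it was the 1 kept call among 7 measured B cell genes. Markers of the other lymphoid cells and of granulocytes were mostly at background. T and NK cell genes were measured in 3 of 17 cases. Lat, an adaptor of the T cell receptor, had 7.21 in CD163 and 5.32, below the ceiling, in Ccrl2, while Cd3d, Cd3e and Cd3g lay below the ceiling in both. Neutrophil genes were measured in 5 of 14 cases, with S100a8 below the ceiling in both libraries and Csf3r, the receptor for granulocyte growth factor, at 9.03 and 7.67. Dendritic cell genes were measured in 6 of 15 cases, and 3 were higher in Ccrl2, none of them kept. The defining genes Flt3, Zbtb46, Xcr1 and Clec9a lay below the ceiling in both libraries. The part of other cell types in the class II difference was not tested.

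Metabolic and proliferation genes gave few kept calls. Ldha, lactate dehydrogenase A, had 11.08 in CD163 and 9.06 in Ccrl2, and was the 1 gene of its list higher in CD163. Of the 18 measured glycolysis and hypoxia genes 7 were higher in Ccrl2, beside 28.1% of all measured genes. After quantile normalization 2 were higher in each library, beside 9.45% (Ccrl2) and 13.3% (CD163). Slc2a1, the glucose transporter GLUT1, had 8.08 against 5.69, below the ceiling, and was the kept call on the Ccrl2 side. Of 18 measured cell cycle genes 6 were higher in Ccrl2, near the 28.1% of all measured genes, and 0 in CD163, and 0 calls were kept. Mki67, the proliferation marker Ki-67, had 9.34 and 7.55. Of 58 measured ribosomal protein genes, 42 were higher in Ccrl2 and 0 in CD163, beside 28.1% and 5.03% of all measured genes. Their median was 1.55 beside 0.69. After quantile normalization 16 were higher in Ccrl2 and 3 in CD163, beside 9.45% and 13.3%, and the median was 0.60 beside 0.19. The part of the scaling in this difference was not tested.

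Outside the lists, the genes with the largest differences in Ccrl2 were Sparc, Rgs1, Gpr65 and Fam107b. Rgs1, which damps chemokine receptor signals, had 16.44 in Ccrl2 and 11.37 in CD163, with 14.72 in Trem2 and 13.54 in CD74. Gpr65, an acid-sensing receptor, had 14.04 against 8.84, with 13.17 and 9.50. Fam107b had 13.20 against 8.22, with 14.10 and 14.12. In all 3 the CD163 library was the lowest of the 4. The largest differences toward CD163 outside the lists had lower signals. Pkmyt1, a kinase that holds back mitosis, had 9.49 in CD163 and 6.35 in Ccrl2, with 8.34 in CD74. Plcg1, a phospholipase of receptor signalling, had 10.04 against 7.74, with 9.27 in CD74, and Safb, a nuclear matrix binding protein, 9.67 against 7.05, with 8.96 in CD74. Ano1, Tex29, Gpr20, Lrrc47 and Tcaf1 completed the 15 genes named for that direction, at CD163 levels from 7.97 to 9.42. The pseudogene Tmem181c-ps (7.55 against 10.11) lay in the same range of differences and was left out of the 15. For Pkmyt1, Plcg1, Safb, Tex29, Lrrc47 and Ano1 the CD74 level lay above both its ceiling and the Ccrl2 level. The CD74 and CD163 arrays had the higher ceilings of the study (6.53 and 6.28), and the part of that in these genes was not tested.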

How the data were processed

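The samples were 4 Clariom S mouse arrays, 1 per sorted population, of which the Ccrl2 and CD163 arrays were compared. The authors background-corrected, normalized and summarised the signals by robust multichip average, per the labels' protocols. GeneSpring is named there, and Affymetrix Expression Console in the submitters' processing notes. For the RMA settings and the annotation build, the sources used here give nothing, and the columns do not share 1 distribution. The deposited values are log2 levels, a scale read from their range of 2.97 to 19.93. The platform annotation gave 1 symbol to 19572 of 22206 gene probe sets, several to 0 and none to 2634. For the 55 genes with several, the probe set with the highest mean over the 4 arrays was used.

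Differences, ceilings and calls were computed in Python 3.11.15, and cyclic loess with limma 3.58.1. The calling rule was run on simulated data that had no general shift and the same ceiling in both libraries. The genes given a difference there were neither dim nor saturated. That run therefore does not show how the shift, the unequal ceilings or dim and saturated levels affect the calls. The 33 lists name 620 genes, 568 on the array and 430 measured. The members and lists were chosen with earlier results of these data known. Named are the markers, the 15 largest differences each way (without predicted genes, antigen receptor segments, pseudogenes and chemosensory receptors) and up to 8 members per list with the largest differences, and other members were added after their values were seen. Alternatives were 5 scalings, 3 filters, 2 fold thresholds, the mean over probe sets, lists without shared members, and no saturated genes.

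A value within 0.015 of 19.93 counted as saturated. Every column used was mapped to a sample, and the Cd74 gene is not reported here.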

Additional observations from a re-analysis of the deposited data

How the results depend on the processing

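The count of genes higher in Ccrl2 (2214) and in CD163 (397) depended on the scaling. Quantile normalization of the 4 columns gave 746 and 1050, of the 2 columns alone 812 and 1109, cyclic loess 831 and 946, centring each column on its median 2589 and 261, and centring the differences on their median, added after the data were seen, 1018 and 1273. A 4-fold threshold gave 661 and 32, a 1.5-fold threshold 986 in CD163, no filter 1860, a filter at the library median 737, and genes above the ceiling in both libraries 224. The mean over probe sets and leaving out saturated genes kept both counts within 1.5 times, and lists without shared members kept their medians within 1 log2 unit.

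List medians reversed for alternative activation genes (-0.70 and -0.72 with 4-column and 2-column quantile normalization, -0.92 with loess, -0.57 centred on the median, -0.08 above both ceilings), complement genes (-0.69, -0.73, -0.76 and -0.26 with the first 4 settings), scavenger and efferocytosis genes (-0.24, -0.25, -0.50 and -0.29) and growth factor genes (-0.06, -0.07, -0.032 and -0.22). Over 1 log2 unit lower were the medians of class II genes (1.18, 1.23 and 1.10 with the 2 quantile settings and loess), matrix genes (1.72, 1.72 and 1.71), chemokine receptor genes (0.80 and 0.85 with quantile), and, with loess, B cell (0.61), monocyte (0.67) and glycolysis genes (0.0842). The fibroblast median was 3.22 above both ceilings. The cause was not tested.

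Of 184 named genes with a call, 112 kept it under every alternative run on single genes, and Socs3 reversed with quantile normalization (-0.10 with 4 columns and -0.105 with 2). No paired analysis was possible because each population has 1 array, and no array could be left out. Signal over background and the top of the scale limit dim and saturated genes.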
